A study of Mus musculus with 6 samples.

Results

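The genes described here encode the translation initiation factors (eIFs) and elongation factors (eEFs) of the cytoplasm, with the repressors that hold some of them back. They were taken as every gene symbol that begins with Eif and a digit, or with Eef1 or Eef2, leaving out 4 Eif2ak kinase genes and 8 pseudogene names that carry -ps. Some genes so taken, such as Eef1e1, are only named for these factors, and Eif2c5 was given no role among them. This gave 65 of the 53346 gene symbols, and the rule uses no measured value, although it was written with earlier results of these data known. RNA levels are in FPKM, the fragments of a gene scaled by transcript length and by sequencing depth. Of the 65 genes, 57 averaged 1 FPKM or more over the lanes of some dose and were compared, as were 12567 genes in all.

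Polyadenylated RNA came from mouse glioma cells, labelled as Ink4a/Arf-/- astrocytes with PDGFRa and PDGF-A, and every group shares these features. The groups are untreated cells (0 µM), cells given 5 µM SHP099 and cells given 10 µM SHP099. SHP099 holds SHP-2 in its closed, inactive form. SHP-2 is a tyrosine phosphatase, encoded by Ptpn11, through which receptor tyrosine kinases reach RAS and ERK. The length of treatment, the form of the introduced receptor and ligand, and whether the cells are 1 clone are not given in the labels.

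Each dose has 2 files, whose labels differ only in the sequencing lane, 6 or 7. They were therefore read as repeat runs of 1 library, n = 1 per dose, although the labels do not say outright that no second culture was used. Under this reading the lanes show measurement error and not the variation between cultures, and no test between doses was made. A gene was counted as having risen or fallen when its mean log2(FPKM + 1) differed by 1.5-fold or more and all 4 pairings of lanes from the 2 doses gave a difference of the same sign. On this scale the change of a gene at low FPKM is understated. Between the lanes of a library the translation factors differed by a median of 0.03, 0.02 and 0.04 log2 units at 0, 5 and 10 µM, and 0 of 57 differed by 1.5-fold.

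The files held between 30760000 and 47600000 fragments each, estimated from the spacing of low FPKM values. A transcript of 2 kb at 1 FPKM then has a counting error of 10.2% to 12.7% per lane, and 3 fragments of it correspond to 0.0315 to 0.0488 FPKM. Of 9 astrocyte markers, 3 (Slc1a3, Gja1 and Sox9) reached 1 FPKM, Aqp4 was listed at 0, and the summed level of the list was 43.5 to 52.9 FPKM. Markers of the oligodendrocyte lineage, of microglia and of endothelium summed to at most 1.14, 0.20 and 0.26 FPKM, and 1 of 5 neuronal markers (Tubb3) reached 1 FPKM. Of 5 fibroblast markers, Col1a1, Col1a2 and Dcn rose at both doses, and Col3a1 was at a log2 fold of -0.24 at 10 µM and did not pass. Lum averaged 0.076 FPKM at 0 µM, 0.57 at 5 µM and 0.285 at 10 µM and was too low to be compared. The fibroblast list summed to 2229 and 2243 FPKM at 0 µM, 4178 and 4201 at 5 µM, with 3907 and 3914 at 10 µM. All 5 proliferation genes (Mki67, Top2a, Ccnb1, Mcm5 and Pcna) fell, and their sum went from 921 and 921 FPKM at 0 µM to 196 and 191 at 5 µM, with 123 and 121 at 10 µM. Their part in the values below was not tested, and in bulk RNA fewer cells of a type and less RNA per cell cannot be told apart.

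Translation begins when eIF2 brings the initiator tRNA to the small ribosomal subunit, which eIF3, eIF1 and eIF1A hold open, and when the cap-binding complex eIF4F recruits that subunit to the message. Elongation then depends on eEF1A, which delivers aminoacyl-tRNA, on the eEF1B exchange factor that recharges it, on eEF2, which moves the ribosome along, and on eIF5A, which helps at slow peptide bonds. Growth factor signals act on this machinery mainly through ERK and mTORC1, which control eIF4E, its binding proteins and the kinase of eEF2, and many of the mRNAs for ribosomal proteins and elongation factors carry a pyrimidine tract at their start (the TOP motif) through which mTORC1 controls their translation.

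The RNA of most translation factors was lower in the treated libraries. At 10 µM against 0 µM, 29 of the 57 genes fell, 1 rose (Eif1b) and 27 passed neither way, beside 19.1% of all compared genes that fell, 15.7% that rose and 34.8% that did either. The 29 include the repressor genes Eif4ebp2 and Eif4enif1, the exon junction helicase gene Eif4a3, and Eef1e1, which is only named for elongation factors. The log2 fold was below 0 for 51 of the 57, and its median was -0.59 beside -0.03 for all genes. At 5 µM against 0 µM, 23 fell and Eif1b rose, beside 16.8% and 14.1% of all genes and 30.9% in either direction, with a median of -0.57 beside -0.03. Both comparisons use the same 0 µM library.

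The fall was present among the abundant factors. Among the 2133 genes that averaged 50 FPKM or more, 26.9% fell at 10 µM, 15.0% rose and the median log2 fold was -0.16. Of the 38 translation factors above that level, 22 fell and 0 rose, with a median of -0.66. Of the 19 below it, 7 fell and Eif1b rose, with a median of -0.49. The FPKM of the 65 genes summed to 13930 and 13901 in the lanes of 0 µM, 9276 and 9313 at 5 µM, with 8618 and 8537 at 10 µM, which was 2.17% and 2.16% of all FPKM in a file without Snora62 at 0 µM and 1.56% and 1.54% at 10 µM.

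Most of the difference was already present at 5 µM. Of the 57 genes, 22 fell at both doses, 7 at 10 µM alone and 1, Eif2a, at 5 µM alone. Between 10 and 5 µM, 0 fell and 0 rose, beside 1.35% and 0.414% of all genes and 1.77% in either direction. The largest difference between these doses was -0.31 on the log2 scale, in Eif2b2, which encodes a subunit of eIF2B. The genes nearest to the threshold at 10 µM were Eif2b4 at -0.59 and Eif2b2 at -0.63 among those that passed, and Eif1a, Eif3h and Eif2a at -0.56 each among those that did not.

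**Figure D1:**
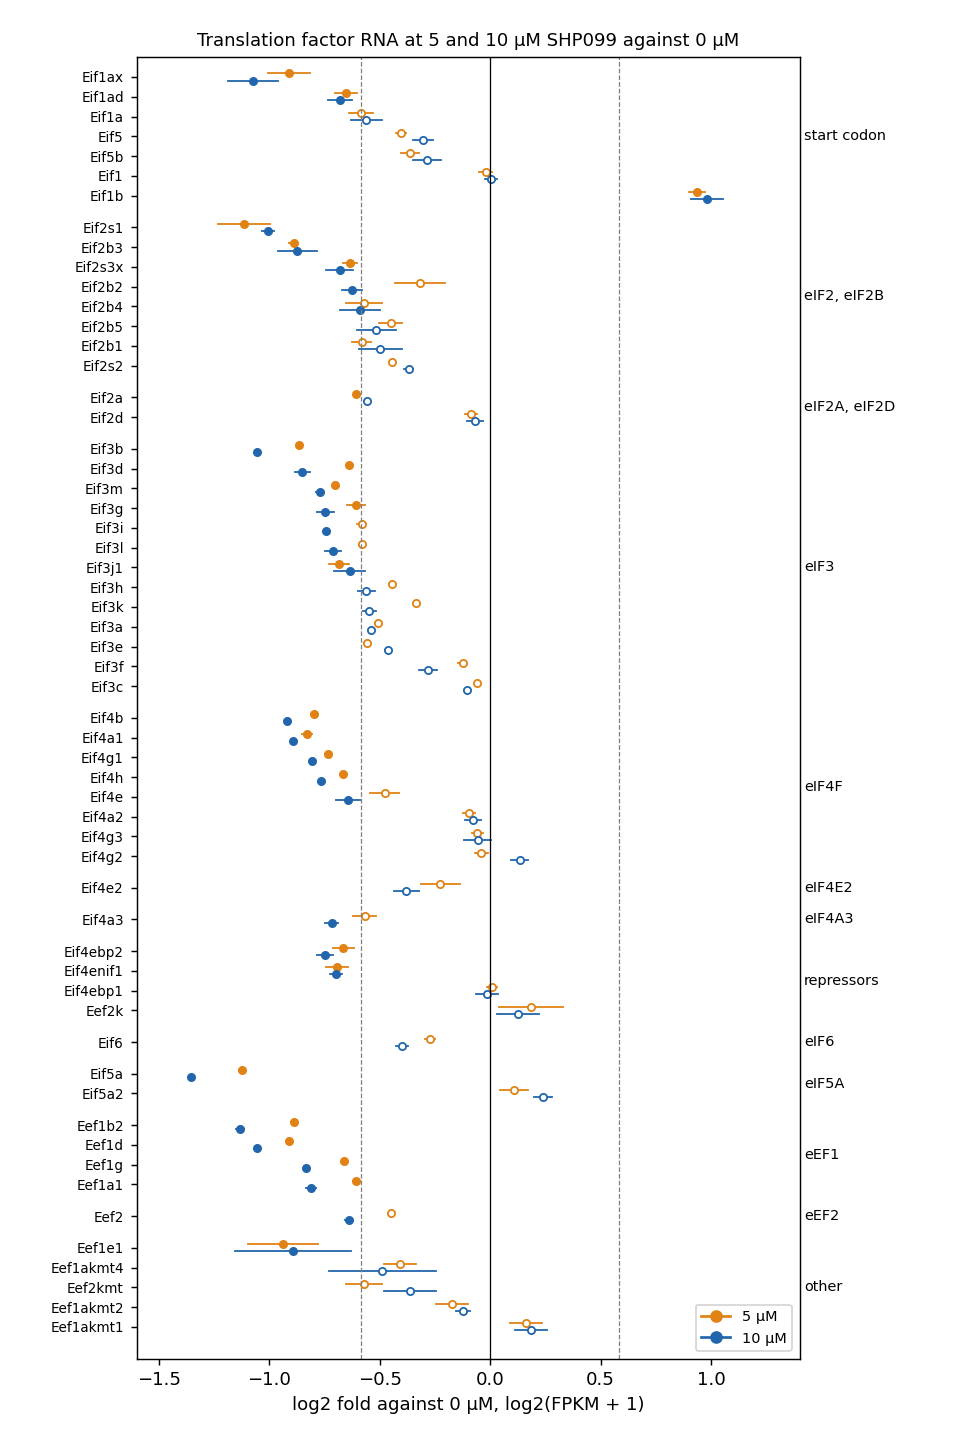
Each point is the log2 fold of a translation factor against 0 µM on the log2(FPKM + 1) scale, at 5 µM SHP099 (orange) or 10 µM (blue), grouped by role, with a bar for the range over the 4 lane pairs. Filled points passed the rule for a change, open points did not, and dashed lines mark 1.5-fold. Eif5a lies lowest, at -1.35 at 10 µM, and Eif1b alone lies beyond the upper line, at 0.98.

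**Figure D2:**
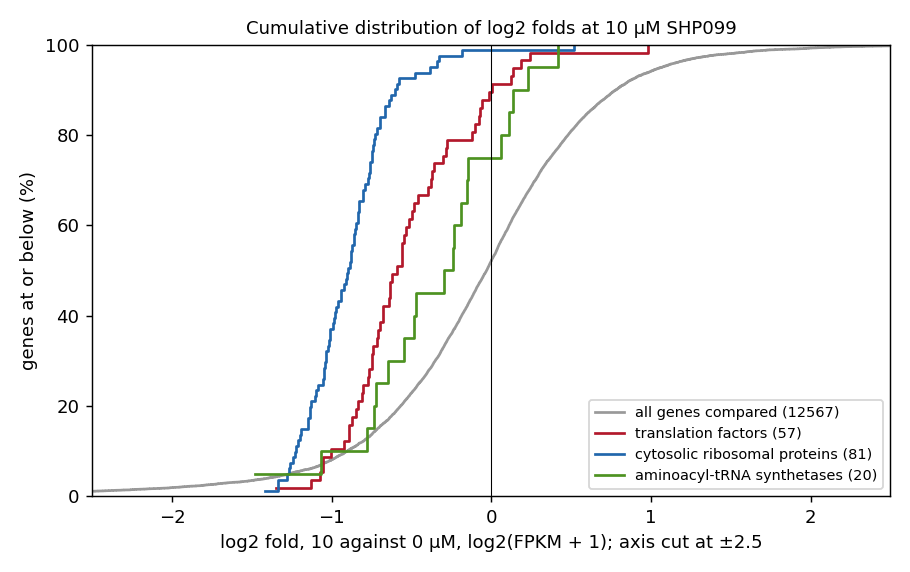
The cumulative share of genes (percent, vertical) at or below each log2 fold at 10 against 0 µM (horizontal) is drawn for all 12567 compared genes, 57 translation factors, 81 cytosolic ribosomal protein genes and 20 aminoacyl-tRNA synthetase genes. The curve of the translation factors runs between those of the ribosomal proteins (median -0.90) and of the synthetases (median -0.27) over most of its height, and all 3 lie to the left of all genes (median -0.03) there.

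All 4 compared eEF1 genes fell at both doses as deposited, with a median log2 fold of -0.94 at 10 µM and -0.77 at 5 µM. At 10 µM all 4 also fell under each other scaling tried, but at 5 µM Eef1a1 no longer passed under the trimmed mean of ratios (-0.57), a median of 0 (-0.57) or the same sum without Snora62 (-0.42), nor did Eef1g under the last (-0.48). Eef1a1, which encodes the eEF1A that brings aminoacyl-tRNA to the ribosome, was at 3562 and 3493 FPKM in the lanes of 0 µM, 2321 and 2317 at 5 µM, with 2023 and 1996 at 10 µM. It was the most abundant factor at every dose, its lanes did not overlap between doses, and it fell by 0.81 on the log2 scale at 10 µM. Its share of the summed FPKM of all 65 genes was 25.6% and 25.1% at 0 µM and 23.5% and 23.4% at 10 µM. Eef1a2, the eEF1A gene of muscle and mature neurons, was at 0.0114 FPKM in 1 lane of 0 µM and listed at 0 in the other 5 files.

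Of the genes of the eEF1B exchange factor, Eef1b2 and Eef1d fell further than Eef1a1. Eef1b2, which encodes its catalytic alpha subunit, was at 645 and 638 FPKM at 0 µM, 345 and 347 at 5 µM, with 294 and 291 at 10 µM. Eef1d, for the second exchange subunit, was at 422 and 419.9 FPKM at 0 µM, 225 and 222 at 5 µM, with 202 and 203 at 10 µM. Every treated lane of both genes lay well below the untreated lanes, and the 10 µM lanes lay below the 5 µM lanes. The log2 folds at 10 µM were -1.13 (range over lane pairs -1.15 to -1.11) for Eef1b2 and -1.05 (-1.06 to -1.04) for Eef1d, and Eef1g, for the structural gamma subunit, was at -0.83.

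Eef2, the translocase, was at 695 and 701 FPKM at 0 µM, 512 and 510.4 at 5 µM, with 445 and 452 at 10 µM. It fell at 10 µM, by 0.64 on the log2 scale, and did not pass the rule at 5 µM, at -0.45. The RNA of its inhibitory kinase did not fall with it. Eef2k, which stops elongation by phosphorylating eEF2, was at 30.7 and 34.7 FPKM at 0 µM, 35.7 and 38.9 at 5 µM, with 35.5 and 35.9 at 10 µM, a log2 fold of 0.13 that passed the rule in neither direction. The FPKM of Eef2k per FPKM of Eef2, a ratio within a file that no scaling between files can change, was 0.0442 and 0.0495 at 0 µM, 0.0696 and 0.0762 at 5 µM, with 0.0797 and 0.0795 at 10 µM. Both treated libraries lay above the untreated one in every lane.

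Among the 57 compared factors the largest fall belonged to Eif5a, which encodes the hypusine-bearing factor that eases slow steps of elongation and termination. It was at 1023 and 1020.2 FPKM at 0 µM, 465 and 471 at 5 µM, with 398 and 401 at 10 µM. The lane pairs of 10 against 0 µM ranged from -1.36 to -1.34 around a log2 fold of -1.35, and the mean FPKM decreased by 60.9%. Its paralog Eif5a2 was at 7.84 and 8.35 FPKM at 0 µM, 8.97 and 8.65 at 5 µM, with 9.73 and 9.73 at 10 µM, a log2 fold of 0.24 that did not pass the rule. Eif5a2 therefore made up 0.760% and 0.812% of the summed FPKM of the pair at 0 µM, 1.89% and 1.80% at 5 µM, with 2.39% and 2.37% at 10 µM. Dhps and Dohh, whose enzymes make hypusine on eIF5A, had log2 folds of -0.29 and -0.38 and passed the rule in neither direction.

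Among the factors that place the initiator tRNA, eIF2 and its exchange factor eIF2B had 8 compared genes. As deposited, 5 of the 8 fell at 10 µM, beside 19.1% of all compared genes, and the median log2 fold was -0.61. With all files scaled to the same sum of FPKM without Snora62, 2 of the 8 fell and the median was -0.39. The 3 subunits of eIF2 did not move by the same amount. Eif2s1, for the alpha subunit whose phosphorylation arrests initiation, was at 90.9 and 94.3 FPKM at 0 µM, 39.6 and 45.1 at 5 µM, with 45.6 and 45.7 at 10 µM. On the log2 scale it fell by 1.00 at 10 µM and fell by 1.11 at 5 µM. Eif2s2, for the beta subunit, was at 149 and 150.2 FPKM at 0 µM, 110.0 and 109 at 5 µM, with 117 and 114 at 10 µM, which did not pass the rule at -0.37.

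The FPKM of Eif2s1 per FPKM of Eif2s2 was 0.611 and 0.627 at 0 µM, 0.360 and 0.414 at 5 µM, with 0.391 and 0.399 at 10 µM, so the treated and untreated lanes did not overlap. Eif2s3x, the X-linked gene of the gamma subunit, was at 117 and 115 FPKM at 0 µM, 75.5 and 73.2 at 5 µM, with 74.4 and 69.3 at 10 µM, and fell by 0.68. Its Y-linked copy Eif2s3y was listed at 0 in all 6 files. Of the 5 eIF2B subunit genes, Eif2b3 (-0.87), Eif2b2 (-0.63) and Eif2b4 (-0.59) fell at 10 µM, and Eif2b5 (-0.51) and Eif2b1 (-0.50) did not pass the rule. The call of Eif2b4 was lost without lane 7 of 0 µM, at -0.56, and without lane 7 of 10 µM, at -0.53. It was also lost with a pseudocount of 5 FPKM (-0.51) and under scaling by a trimmed mean of ratios (-0.55), to a median of 0 (-0.56) or to the same sum (-0.38). Eif2b5 passed without lane 6 of 10 µM, at -0.59, as did Eif2b1 without lane 7 of 10 µM, at -0.59.

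Eif2a and Eif2d encode factors that can deliver the initiator tRNA without eIF2. Eif2a was at 66.4 and 66.5 FPKM at 0 µM, 43.2 and 43.3 at 5 µM, with 45.0 and 44.5 at 10 µM, which passed the rule at 5 µM, at -0.61, and not at 10 µM, at -0.56. Its call at 5 µM was lost with a pseudocount of 5 FPKM (-0.57) and under scaling by a trimmed mean of ratios (-0.57). Scaling to a median of 0 (-0.58) or to the same sum without Snora62 (-0.43) also lost it. Between 10 and 5 µM Eif2a differed by only 0.05 on the log2 scale. Eif2d was at a log2 fold of -0.07 at 10 µM and did not pass.

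Start codon selection held the single member that rose. Eif1b encodes a close relative of eIF1, the factor that rejects wrong start codons, and was at 20.7 and 19.9 FPKM at 0 µM, 40.0 and 39.4 at 5 µM, with 42.4 and 39.7 at 10 µM. Both treated libraries lay above the untreated one in every lane and did not separate from each other, with log2 folds of 0.98 (range 0.91 to 1.05) at 10 µM and 0.94 at 5 µM. Eif1 itself was at 323 and 319 FPKM at 0 µM, 313 and 322 at 5 µM, with 326 and 318 at 10 µM, so its lanes overlapped between all doses. Eif1b made up 6.0% and 5.87% of the pair's summed FPKM at 0 µM, 11.3% and 10.9% at 5 µM, with 11.5% and 11.1% at 10 µM.

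The genes of eIF1A, which works beside eIF1 on the scanning subunit, were lower. Eif1ax was at 272 and 288 FPKM at 0 µM, 143 and 154 at 5 µM, with 139.5 and 126 at 10 µM, and fell by 1.07. Eif1a, a near copy of it, was at 63.4 and 67.4 FPKM at 0 µM, 43.0 and 43.6 at 5 µM, with 44.8 and 43.2 at 10 µM, a log2 fold of -0.56 that did not pass the rule, though it passed without lane 6 of 0 µM, at -0.60, or lane 6 of 10 µM, at -0.59. The share of Eif1ax in the pair's FPKM was 81.1% and 81.1% at 0 µM and 75.7% and 74.5% at 10 µM. Eif1ad, an eIF1A-like protein, fell by 0.68. Eif5, which triggers GTP hydrolysis on eIF2, and Eif5b, which joins the subunits, were at -0.30 and -0.28 and did not pass.

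All 13 compared genes of eIF3, the multi-subunit scaffold of the initiating ribosomal subunit, had a log2 fold below 0 at both doses as deposited, though when all files were scaled to the same sum of FPKM without Snora62 Eif3c came to lie above 0 at both doses and Eif3f at 5 µM. At 10 µM 7 of them fell (Eif3b, Eif3d, Eif3m, Eif3g, Eif3i, Eif3l and Eif3j1), and the median was -0.64. Under that scaling 2 fell, Eif3b and Eif3d, and the median was -0.43. Eif3b, part of the core that binds the ribosome, was at 236 and 236 FPKM at 0 µM, 129 and 128 at 5 µM, with 113 and 113 at 10 µM, and fell by 1.05. Eif3h, the most abundant of them at 0 µM, was at 419 and 425 FPKM at 0 µM, 309.9 and 311 at 5 µM, with 292 and 281 at 10 µM, a log2 fold of -0.56 that passed without lane 6 of 10 µM, at -0.59. Eif3j1, for the loosely bound subunit, was at 22.5 and 23.9 FPKM at 0 µM, 14.1 and 14 at 5 µM, with 14.8 and 14.3 at 10 µM, and fell by 0.64. With a pseudocount of 5 FPKM it no longer passed, at -0.53. Its copy Eif3j2 did not exceed 0.304 FPKM.

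Eif3c was the subunit gene that moved least. It was at 296 and 292 FPKM at 0 µM, 282 and 283 at 5 µM, with 274 and 272 at 10 µM, a log2 fold of -0.10. Its FPKM per FPKM of Eif3b, with which it forms part of the core, was 1.25 and 1.24 at 0 µM, 2.18 and 2.20 at 5 µM, with 2.43 and 2.41 at 10 µM. Eif3b had the largest fall of the compared eIF3 genes and Eif3c the smallest, so this pair shows the widest contrast among them. Leaving out Eif3j1, the median FPKM over the eIF3 genes was 208 and 208 at 0 µM, 135 and 134 at 5 µM, with 118 and 116 at 10 µM.

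**Figure D3:**
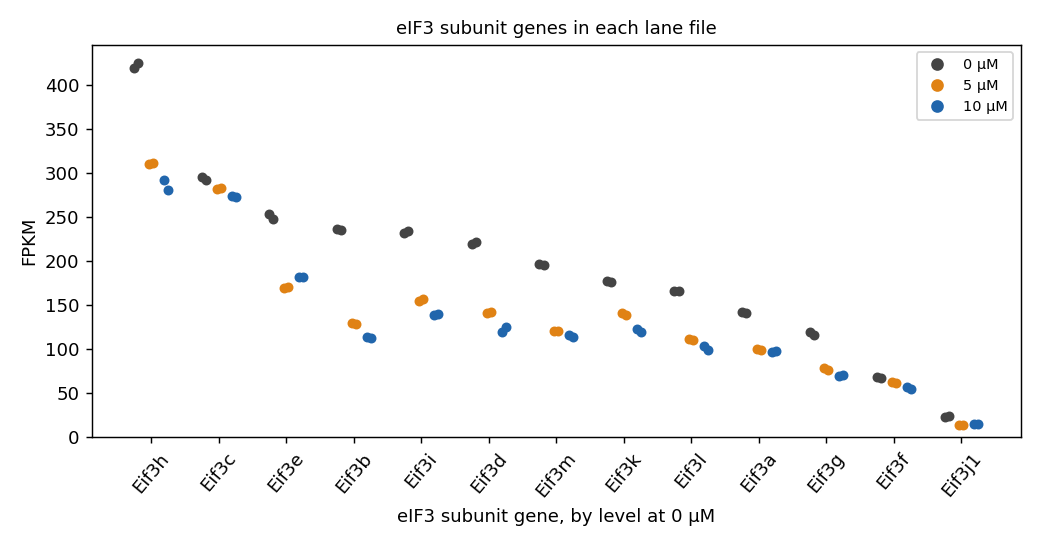
FPKM (vertical) of each compared eIF3 subunit gene (horizontal, ordered by level at 0 µM) is shown in each lane file, with 0 µM in grey, 5 µM in orange and 10 µM in blue. In FPKM as deposited the 0 µM points lie above both treated doses for every gene, by the smallest fold for Eif3c. Scaled to the same sum without Snora62, the folds of Eif3c at both doses and of Eif3f at 5 µM lie above 0.

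The cap-binding complex and its helpers had 8 compared genes. As deposited, 5 of the 8 fell at 10 µM, beside 19.1% of all compared genes, and the median log2 fold was -0.70. Scaled to the same sum without Snora62, 3 of the 8 fell and the median was -0.49. The folds of Eif4a2, Eif4g2 and Eif4g3 then lay above 0. Eif4e, the cap-binding subunit, was at 215 and 221 FPKM at 0 µM, 151 and 161 at 5 µM, with 136 and 143 at 10 µM, and fell by 0.64 at 10 µM but did not pass the rule at 5 µM, at -0.48. Eif4a1, the RNA helicase, was at 863 and 860.2 FPKM at 0 µM, 477 and 491 at 5 µM, with 465 and 462 at 10 µM, and fell by 0.89. Eif4g1, the scaffold that joins cap and ribosome, was at 231 and 233 FPKM at 0 µM, 139.6 and 139 at 5 µM, with 133 and 132 at 10 µM, and fell by 0.81. The treated lanes of these genes lay below the untreated lanes without overlap. The helicase cofactors Eif4b and Eif4h fell by 0.92 and 0.76.

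Eif4a2, the second helicase gene, was at 129 and 126 FPKM at 0 µM, 120.1 and 119 at 5 µM, with 119 and 122 at 10 µM, a log2 fold of -0.08. The share of Eif4a1 in the summed FPKM of Eif4a1 and Eif4a2 was 87.0% and 87.2% at 0 µM, 79.9% and 80.6% at 5 µM, with 79.6% and 79.1% at 10 µM. Eif4a3, whose helicase belongs to the exon junction complex, was at 114 and 118 FPKM at 0 µM, 79.5 and 76.5 at 5 µM, with 70.0 and 70.5 at 10 µM, and fell by 0.72 at 10 µM.

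Eif4g2 encodes DAP5, a scaffold that lacks the eIF4E-binding site and serves cap-independent initiation. It was at 376 and 387 FPKM at 0 µM, 373 and 369 at 5 µM, with 424 and 414 at 10 µM, a log2 fold of 0.14 at 10 µM and -0.04 at 5 µM. It exceeded Eif4g1 in every file, by 1.63 and 1.66 times in the lanes of 0 µM, 2.68 and 2.66 times at 5 µM and 3.20 and 3.14 times at 10 µM. Eif4g1 thus went from 37.0% and 36.5% of the summed FPKM of the 3 eIF4G genes at 0 µM to 26.3% and 26.4% at 5 µM, with 23.1% and 23.4% at 10 µM. Eif4g3, the third gene, was at 17.9 and 18.4 FPKM at 0 µM, 17.5 and 17.3 at 5 µM, with 17.9 and 16.9 at 10 µM, and its lanes overlapped between 0 and 10 µM.

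**Figure D4:**
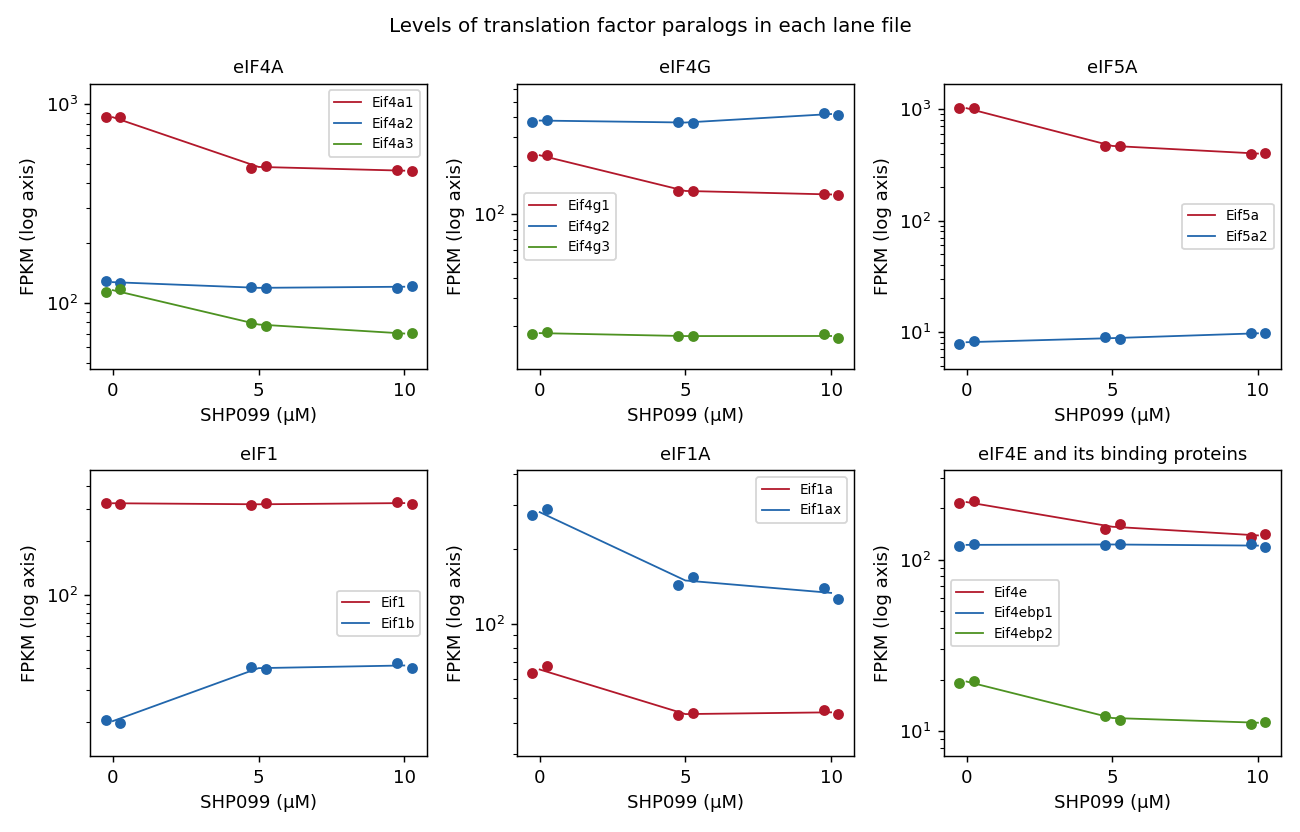
FPKM (vertical, log axis) of translation factor paralogs is plotted against the dose of SHP099 (µM), with a point for each lane file and a line through the mean of the lanes. Eif4a1, Eif4g1, Eif5a, Eif1ax, Eif4e and Eif4ebp2 descend from 0 to 5 µM, Eif1b climbs from about 20 to about 40 FPKM, and Eif4a2, Eif4g3, Eif1 and Eif4ebp1 run nearly level.

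Of the repressors of initiation, 2 (Eif4ebp2 and Eif4enif1) fell at 10 µM as deposited and the main eIF4E-binding protein gene did not. Of all compared genes 19.1% fell. Scaled to the same sum without Snora62, Eif4ebp2 (-0.54) and Eif4enif1 (-0.48) no longer passed. Eif4ebp1, whose product sequesters eIF4E until mTORC1 phosphorylates it, was at 121 and 124 FPKM at 0 µM, 123 and 124 at 5 µM, with 124 and 118 at 10 µM. Its lanes overlapped between all doses, with a log2 fold of -0.01 at 10 µM. Eif4ebp2, a second such protein that is prominent in brain, was at 19.2 and 19.7 FPKM at 0 µM, 12.2 and 11.7 at 5 µM, with 11.1 and 11.3 at 10 µM, and fell by 0.75. Eif4ebp3, the third, was at 0.520 and 0.797 FPKM at 0 µM, 0.110 and 0.647 at 5 µM, with 0.932 and 0.588 at 10 µM and was too low to be compared. Eif4enif1, which encodes the eIF4E transporter 4E-T, was at 41.2 and 42.1 FPKM at 0 µM, 24.8 and 26.0 at 5 µM, with 25.5 and 25.1 at 10 µM, and fell by 0.70.

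With Eif4ebp1 at a like level and Eif4e lower, binding protein RNA was higher relative to cap-binding RNA in the treated libraries. The summed FPKM of the 3 binding protein genes per FPKM of Eif4e was 0.656 and 0.654 at 0 µM, 0.892 and 0.843 at 5 µM, with 1.00 and 0.915 at 10 µM. The treated lanes all lay above the untreated ones, and all of the lanes of 10 µM lay above those of 5 µM. Eif4ebp2 supplied 13.7% and 13.7% of the binding protein sum at 0 µM and 8.13% and 8.71% at 10 µM. These are ratios of RNA, and the files hold no measure of the phosphorylation that sets the binding of these proteins.

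**Figure D5:**
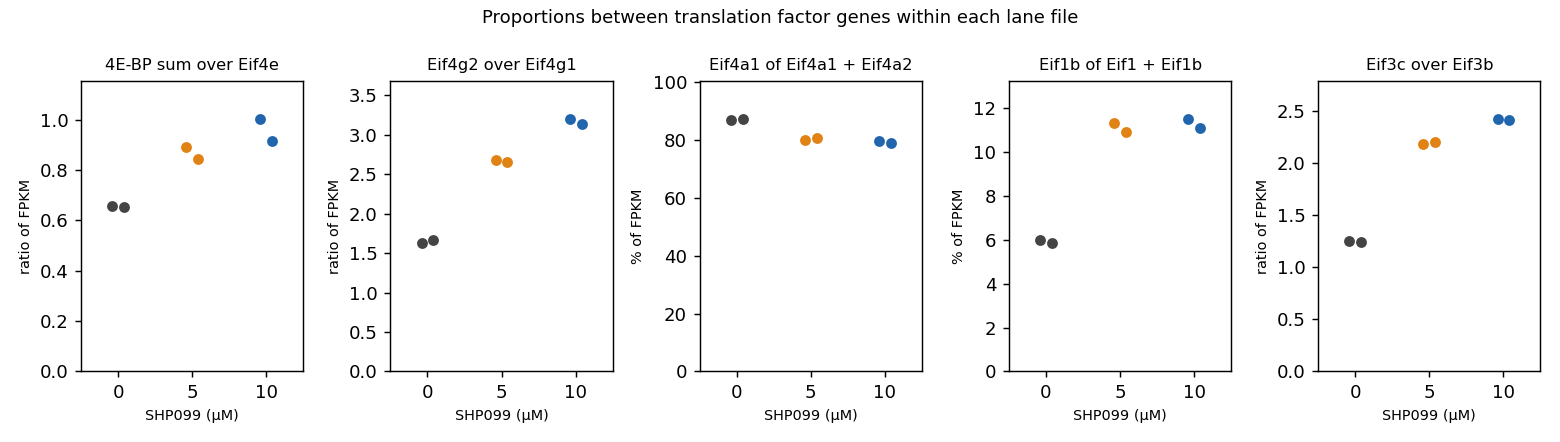
Ratios or shares of FPKM within a lane file (vertical, from 0) are plotted against the dose of SHP099 (µM), with a point for each of the 2 lanes. The eIF4E-binding protein sum over Eif4e (4E-BP sum) goes from 0.656 and 0.654 at 0 µM to 1.00 and 0.915 at 10 µM, Eif4g2 over Eif4g1 from 1.63 and 1.66 to 3.20 and 3.14, the share of Eif4a1 from 87.0% and 87.2% to 79.6% and 79.1%, that of Eif1b from 6.0% and 5.87% to 11.5% and 11.1%, and Eif3c over Eif3b from 1.25 and 1.24 to 2.43 and 2.41. Eif3c and Eif3b are the compared eIF3 genes with the smallest and the largest fall.

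Eif4e2, for the cap-binding relative 4EHP that represses translation, was at 104 and 101 FPKM at 0 µM, 91.9 and 83.3 at 5 µM, with 76.6 and 80.7 at 10 µM, a log2 fold of -0.38 that did not pass. Eif6, which keeps the large ribosomal subunit from joining too early, was at 158 and 163 FPKM at 0 µM, 133 and 133 at 5 µM, with 121 and 122 at 10 µM, a log2 fold of -0.40 that did not pass either. Among 5 compared genes that are only named for elongation factors, Eef1e1, a scaffold of the multi-synthetase complex, was at 47.7 and 53.7 FPKM at 0 µM, 27.4 and 24.6 at 5 µM, with 30.4 and 23.6 at 10 µM. It fell by 0.89, with wider lane differences than the abundant factors. The 4 methyltransferase genes passed in neither direction. Eef1akmt1, which modifies a lysine of eEF1A, was at 25.6 and 23.9 FPKM at 0 µM, 28.3 and 27.3 at 5 µM, with 28.8 and 27.8 at 10 µM, a log2 fold of 0.18, while Eef1akmt4 was at -0.49 (and passed without lane 6 of 10 µM, at -0.67), Eef2kmt at -0.36 and Eef1akmt2 at -0.12.

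The 8 genes not compared were Eef1a2, Eif2s3y, Eif3j2 and Eif4ebp3, described above, and Eif4e3, Eif4e1b, Eef1akmt3 and Eif2c5. Eif4e3, a cap-binding relative, was at 0.158 and 0.185 FPKM at 0 µM, 0.104 and 0.0919 at 5 µM, with 0.129 and 0.155 at 10 µM. The oocyte gene Eif4e1b did not exceed 0.0492 FPKM, Eef1akmt3 did not exceed 0.871 and Eif2c5 did not exceed 0.193. Eif2c5 entered by its symbol and was given no role among these factors. Several abundant factors, Eef1a1, Eif4a1, Eif1 and Eif5a among them, have processed pseudogene copies, and Eif1 with Eif1b and Eif1a with Eif1ax are alike in sequence. How reads shared by such copies were assigned is not given in the sources used here, so their levels are uncertain. Of the 8 pseudogene names left out, Eif4a-ps4 was at 5.51 and 5.09 FPKM at 0 µM and 2.72 and 2.76 at 10 µM and the other 7 were listed at 0.

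Scaling bears on how many genes pass. The FPKM were used as deposited; when every file was instead scaled to the same sum of FPKM without Snora62, the median log2 fold of all genes at 10 against 0 µM moved from -0.03 to 0.16, and 12.6% of all genes then fell and 23.4% rose. Of the translation factors 14 then fell and Eif1b rose, with a median of -0.38, and at 5 µM 10 fell in place of 23. The 14 were Eif5a, Eef1b2, Eif1ax, Eif3b, Eef1d, Eif2s1, Eif4b, Eef1e1, Eif4a1, Eif2b3, Eif3d, Eef1g, Eef1a1 and Eif4g1. Under that scaling Eif4e (-0.43), Eef2 (-0.42), Eif4ebp2 (-0.54), Eif4h (-0.55), Eif4a3 (-0.50) and Eif2s3x (-0.46) no longer passed, and the folds of Eif4ebp1, Eif4a2, Eif4g3, Eif3c, Eif2d and Eef1akmt2 came to lie above 0 without passing.

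Other lists of translation genes give the setting of these values, beside the 19.1% of all genes that fell at 10 µM and the 15.7% that rose. Of 81 compared cytosolic ribosomal protein genes, 74 fell at 10 µM and 0 rose, with a median log2 fold of -0.90, and Rpl3 and Rps2, for proteins of the large and the small subunit, were lowest at -1.42 and -1.34. Their FPKM summed to 106835 and 106653 at 0 µM and to 57571 and 57254 at 10 µM. Of the translation factors, 9 are on a textbook list of TOP messages, which may not be complete. At 10 µM 6 of these 9 fell (Eef1a1, Eef1b2, Eef1d, Eef1g, Eef2 and Eif4b), with a median of -0.81. Of the 48 compared factors outside that list 23 fell and Eif1b rose, with a median of -0.56. The TOP genes Eif3e (-0.46), Eif3f (-0.28) and Eif3h (-0.56) did not pass.

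The next lists are likewise set beside the 19.1% of all genes that fell at 10 µM and the 15.7% that rose. Among genes that averaged 50 FPKM or more, 26.9% fell and 15.0% rose. Counts near these shares are not read as a change of the list. Of 7 compared termination and recycling genes 3 fell, with a median of -0.57. They were Gspt1 (-0.91) and Etf1 (-0.62), which encode the release factors eRF3a and eRF1, and Abce1 (-0.85), the recycling ATPase, while Pelo, which rescues stalled ribosomes, was at 0.44 and did not pass. Of 7 poly(A)-binding genes Pabpc4 (-0.99), Pabpc1 (-0.98) and Larp4 (-0.66) fell, and the mean level of Pabpc1 went from 437 FPKM at 0 µM to 221 at 10 µM. Of 7 helpers of initiation, Abcf2 (-0.71) and Abcf1 (-0.65) fell. Of 10 mitochondrial translation factors, Tufm (-0.97), Gfm1 (-0.97) and Tsfm (-0.76) fell, and the other 7 did not pass. Of 20 cytosolic aminoacyl-tRNA synthetase genes 6 fell, with a median of -0.27. Vars (-1.48), Kars (-1.07), Farsa (-0.78) and Qars (-0.73) were lowest, while Aars was at 0.42 and did not pass. Of the 3 selenocysteine genes 0 passed, with a median of -0.49.

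Control genes upstream of these factors are set beside the 15.7% of all genes that rose and the 19.1% that fell. Of 14 genes of mTORC1 and MNK control, Akt1s1 (0.96), an inhibitory mTORC1 subunit, Pdcd4 (0.68), an inhibitor of eIF4A, and Mknk1 (0.59), a kinase of eIF4E, rose at 10 µM, Mtor (-0.79) fell and 10 did not pass, with a median of 0.03. Of 8 genes around eIF2 phosphorylation 3 rose and 0 fell, with a median of 0.23. Ppp1r15a (1.20), a phosphatase subunit that restores eIF2, Ddit3 (0.99), a transcription factor of the stress response, and Eif2ak3 (0.60), the eIF2 kinase of the endoplasmic reticulum, rose. Atf4, whose translation that response raises, was at 0.26 and did not pass. Phosphorylation of eIF2 itself was not analysed here.

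Promoter sequences of RefSeq (GRCm38.p6, 250 bases before to 50 after each annotated start) were matched by symbol to 49 of the 65 genes, 46 of them compared, and searched on both strands for CACGTG, the palindromic E-box that MYC-type factors can bind, and CCGGAAG, which holds the core read by ETS-type factors. These letters cannot overlap. Windows of 30 bases are shown for the gene that fell most, the gene that rose and the Eif5a paralog, because they are the 3 genes that hold both motifs, and for further genes that fell. Capitals mark the motif, and each is written 5′ to 3′ on the strand of its gene.
Eif5a E-box, minus strand of chr11:69920791-69920820: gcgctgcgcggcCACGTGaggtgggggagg
Eif5a CCGGAAG, minus strand of chr11:69920668-69920697: gcagccgtagcaCCGGAAGtgttccccatt
Eif1b E-box, plus strand of chr9:120492570-120492599: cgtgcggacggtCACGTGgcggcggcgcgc
Eif1b CCGGAAG, plus strand of chr9:120492444-120492473: tcgccgttgcacCCGGAAGcgcctccgccc
Eif5a2 E-box, plus strand of chr3:28781123-28781152: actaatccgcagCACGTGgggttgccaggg
Eif5a2 CCGGAAG, plus strand of chr3:28781101-28781130: cagctctgcacgCCGGAAGtgcactaatcc
Eif4g1 E-box, plus strand of chr16:20672661-20672690: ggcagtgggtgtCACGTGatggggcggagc
Eif4a1 E-box, minus strand of chr11:69672595-69672624: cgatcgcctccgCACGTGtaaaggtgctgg
Eef1b2 CCGGAAG, plus strand of chr1:63176820-63176849: cctgcagttccgCCGGAAGtagccgaggcc
Eif3m CCGGAAG, minus strand of chr2:105017065-105017094: tctgtggctgacCCGGAAGcggttgtgcgt

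The E-box letters were in 13 of the 46 compared translation factors (28.3%), beside 12.1% of the 9167 compared genes with a promoter and 7.15% of all 32851 promoters. Of the 13, 6 fell at 10 µM, and of the 33 without them 19 fell. Over all genes, 19.6% of those with the E-box letters and 19.7% of those without them fell. CCGGAAG was in 16 of the 46 (34.8%), beside 21.6% of genes and 8.86% of promoters, and 12 of these 16 fell, as did 13 of the 30 without it. Of all genes, 22.3% of those with CCGGAAG and 19.0% of those without it fell. Eif5a, which fell by 1.35, Eif1b, which rose by 0.98, and Eif5a2, at 0.24, all hold both motifs. Windows for a start with the TOP form, a C followed by at least 4 pyrimidines, are shown with the pyrimidine run in capitals for the 2 compared factors whose annotated start has it. Eif2c5, which was given no role and was too low to be compared, has it too.
Eif2s3x start, minus strand of chrX:94212637-94212666: ctgccgagcattttcCTTTTCTCTCCgagc
Eif3f start, plus strand of chr7:108934400-108934429: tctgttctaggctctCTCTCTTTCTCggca

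The TOP form was at the annotated start of these 2 of 46 compared factors (4.35%), 3.05% of genes and 2.51% of promoters. Eif3f is on the textbook list of TOP messages and Eif2s3x is not. Of the other genes on that list, Eef1d, Eef1g, Eif3e and Eif3h had no matched promoter and were not searched. Eef1a1, Eef1b2, Eef2 and Eif4b were searched and lack the form at their annotated starts. The share therefore does not measure how many of the factors are TOP messages. The form depends on the exact base at which a start is annotated, and its absence at the other starts says only that these letters are not there.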

How the data were processed

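The authors deposited 6 tables of FPKM per gene, 1 for each of 2 lanes of 3 libraries. Bowtie 0.12.2 and mm8 are named in the submitters' processing notes, and the tool that computed FPKM, its annotation and any scaling between files are not given in the sources used here. Of 53460 identifiers 53270 are in GENCODE M21, a later annotation, so no position is taken from the files. Entries of a symbol were summed, and 0 of the 65 symbols had several entries.

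Means over lanes were taken on log2(FPKM + 1), with a pseudocount of 1 FPKM, over genes that averaged 1 FPKM or more at some dose. The 2 files of a dose were treated as repeat runs of 1 library, because their labels differ only in the lane. Under this reading no test was made, and lane differences show measurement error and not the variation between cultures. Between the lanes of 5 µM, 149 of the 12567 compared genes differed by 1.5-fold or more, and Snora62 differed most, by 18.56 log2 units. Depth was fitted so that low FPKM of genes with 1 transcript of 1500 to 6000 bases became whole fragments, taking 240 bases off the length. In each file 97.5% to 98.2% of the 1340 to 1441 genes used came out whole within 0.1. Errors and limits from it cover counting alone.

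Values in every file are given for the repressors Eif4ebp1, Eif4ebp2, Eif4ebp3 and Eef2k, the most abundant gene of each role, the 6 largest falls and the 6 largest rises at 10 against 0 µM and the paralog sets, 36 genes in all, and for Eif3c and Eif4enif1, chosen after their values were seen. For other lists up to 4 genes with the largest folds are named, and further genes are given by their fold. The rule for the genes uses no measured value, but it and the lists were chosen with earlier results of these data known. The rule for a change was tested on simulated lanes with counting error and lane noise, at the same depth in all files. That simulation held no variation between cultures and so says nothing about it. The alternatives tried were a pseudocount of 0.1 or 5, a filter of 5 FPKM or none, a trimmed mean of ratios (30% of ratios and 5% of levels trimmed), the same sum per file, a median log2 fold of 0, a 2-fold rule, the highest entry of a symbol, each lane file left out and, chosen after seeing the data, the same sum without Snora62. Promoters are from RefSeq GRCm38.p6, matched by symbol. Python 3.11.15, numpy 2.4.6, pandas 2.3.3 and matplotlib 3.10.9 were used.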

Additional observations from a re-analysis of the deposited data

How the results depend on the processing

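At 10 against 0 µM 14 translation factors fell under the 1.5-fold rule as reported and under all of its alternatives, 34 fell under at least 1 of them, and Eif1b rose under all. At 5 against 0 µM these numbers were 10 and 38. The 2-fold rule left 6 that fell and 0 that rose at 10 µM, and 2 and 0 at 5 µM. Scaling to the same sum left 14 that fell at 10 µM, with or without Snora62, and at 5 µM gave 38 with Snora62 and 10 without it, since that gene is listed at a high value in 1 lane of 5 µM. With Snora62 that scaling also made 1 gene rise at 10 against 5 µM (Eif4g2 at 0.59) and reversed the median there from -0.06 to 0.35. Without 1 lane file the counts that fell were 28 to 33 at 10 µM and 23 to 28 at 5 µM, 1 rose in both, and 0 changed between 10 and 5 µM. Scaling by the trimmed mean of ratios or to a median of 0 gave 28 at 10 µM and 20 at 5 µM. The pseudocounts gave 27 to 29 and 18 to 27. No test was made, paired or not, because the files of a dose were read as lanes of 1 library. Under that reading variation between cultures was not measured.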
